A study of Bos taurus with 37 samples.

Results

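Expression of 4 simple epithelial keratins, KRT7, KRT8, KRT18 and KRT19, and of vimentin (VIM) was followed in single bovine blastocysts. The genes were taken by symbol from a table of FPKM, a level that corrects fragment counts for transcript length and for the size of the library, in which each of the 5 symbols has a single row among 22628. The 37 libraries comprise 6 male and 6 female blastocysts from somatic cell nuclear transfer (SCNT-BLs), 6 male and 5 female sham nuclear transfer blastocysts (sham NT-BLs), 6 male and 6 female blastocysts from in vitro fertilization (IVF-BLs), and the male and the female donor cells with 1 library apiece. SCNT-BLs came from an enucleated oocyte fused with a single donor cell, an adult ear skin fibroblast, then activated and collected 6 to 8 days after the transfer. All SCNT-BLs of a sex share the donor population of that sex. Sham NT-BLs were zygotes with both pronuclei, opened 18 to 22 hours after fertilization to remove the polar body and some ooplasm, and then activated with ionomycin and 6-dimethyl-aminopurine, so that they kept their embryonic genome. IVF-BLs had neither manipulation nor chemical activation. Embryos of 60 to 80 blastomeres were selected. The labels give every blastocyst as an embryo of its own, taken here as 1 replicate, whereas donor values have no replicate.

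Keratins are intermediate filament proteins that assemble only as pairs of a type I and a type II chain. KRT18 and KRT19 are type I chains, and KRT8 and KRT7 are type II chains. KRT8 and KRT18 are the main pair of simple, single-layered epithelia and are early keratins of the mammalian embryo, where the trophectoderm, the outer epithelium of the blastocyst, carries them. KRT19 and KRT7 are further simple-epithelium chains, also used in placental trophoblast. Vimentin is a type III filament protein that assembles by itself and is the main cytoplasmic filament of fibroblasts and other mesenchymal cells. A nuclear transfer embryo therefore starts from a nucleus of a vimentin-type cell and forms a keratin-type epithelium. In the ARS-UCD 2.0 annotation, KRT18 and KRT8 are neighbours on chromosome 5 with 0 protein-coding genes between them, KRT7 is on the same chromosome at place 27 of the 28 keratin symbols there, KRT19 is on chromosome 19 and VIM is on chromosome 13. That assembly is later than the UMD 3.1 build of the files and was used for names and neighbours only.

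Blastocyst libraries had 12318 to 15321 genes above 0 FPKM and a summed FPKM of 414105 to 601000. The lowest values of each library stand in a common ratio to those of the others, which gives relative depths of 0.371 to 1.44, with male IVF-BL replicate 1 set to 1. Defining markers fitted the labels: GATA3, a trophectoderm transcription factor, was at 60.1 to 246 FPKM in the 35 blastocysts, against 0.259 FPKM in the male donor library and 0.170 FPKM in the female one, and COL1A1, a fibroblast collagen, was at most 3.44 FPKM in blastocysts, against 2112 and 2141 FPKM in male and female donor cells. Of the trophectoderm list, 10 of 12 genes averaged over 1 FPKM in blastocysts. Male and female libraries were sequenced on separate flow cells, so sex and flow cell cannot be told apart. Female IVF-BL replicate 6 had the most genes above 0 (15321) and female SCNT-BL replicates 5 and 6 the fewest (12318 and 12403), and the female keratin values against IVF-BLs are given with and without them.

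KRT8 and KRT18 were among the most abundant transcripts of every kind of blastocyst. Counting from the highest of the 22628 rows, KRT8 held rank 8 to 69 (median 19) and KRT18 rank 7 to 129 (median 14) in the 35 blastocysts, and in 34 of the 35 both were among the 100 highest rows. The 4 keratins together made up 0.304% to 1.49% of the summed FPKM of a blastocyst (median 0.965%), and KRT8 and KRT18 gave 98.6% to 99.9% of that keratin sum. KRT19 and KRT7 were therefore minor chains at this stage. VIM showed the reverse, at most 2.54 FPKM in any blastocyst and 1409 FPKM or more in donor cells.

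**Figure D1:**
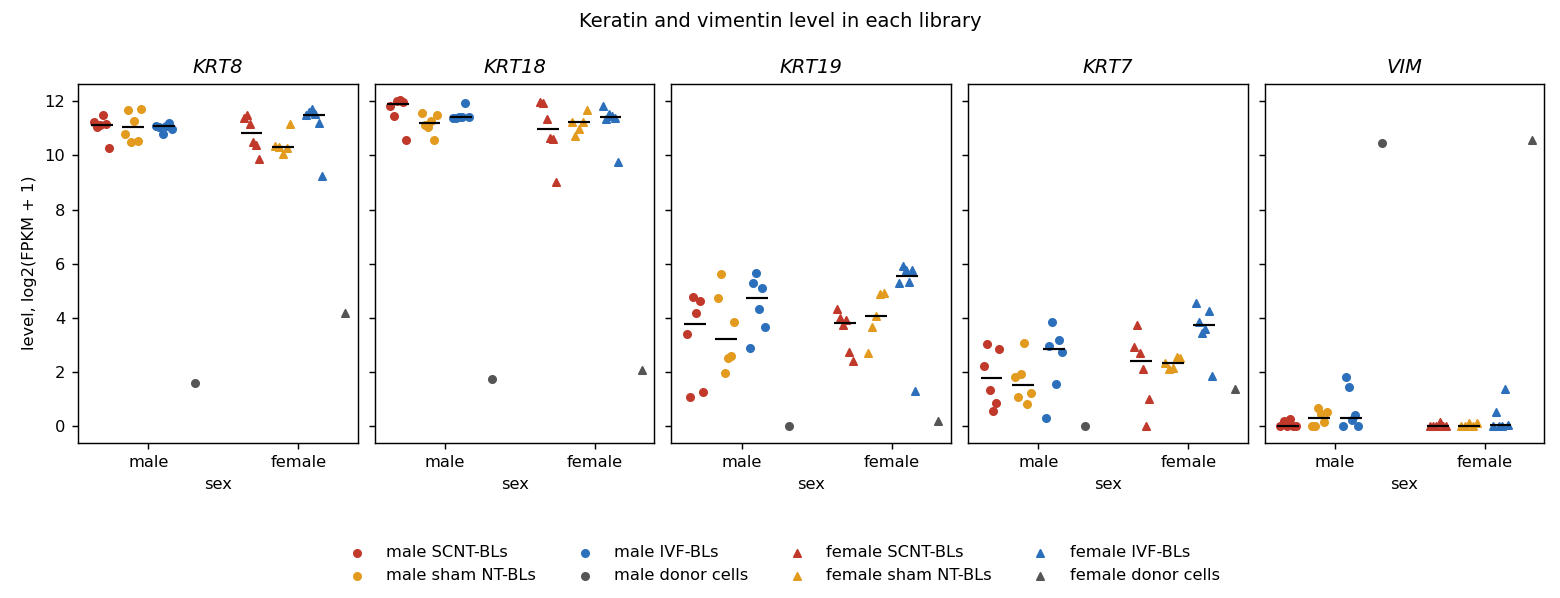
Level of each gene, as log2(FPKM + 1), in every library, with circles for male and triangles for female libraries. Within a sex the order is SCNT-BLs, sham NT-BLs, IVF-BLs and donor cells, each symbol is 1 embryo or 1 donor library, and the bar is the group median. KRT8 and KRT18 sit near the top in all 35 blastocysts and low in donor cells, and VIM shows the opposite.

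The KRT8 level ran from 1246 to 2876 FPKM in male SCNT-BLs (median 2239), from 1447 to 3404 FPKM in male sham NT-BLs (median 2131) and from 1780 to 2337 FPKM in male IVF-BLs (median 2156). In females it ran from 934 to 2860 FPKM in SCNT-BLs (median 1860), was 1292, 1269, 1051, 1234 and 2275 FPKM in the 5 sham NT-BLs, and ran from 607 to 3396 FPKM in IVF-BLs (median 2911). The order of the medians was female IVF, male SCNT, male IVF, male sham, female SCNT and female sham, but the ranges of every pair of the 6 groups overlapped. Male IVF-BLs were the most even group, with a coefficient of variation of 9.22% for KRT8, and female SCNT-BLs the least even, with 41.2%. KRT8, the type II chain of the pair, can assemble with KRT18 or with KRT19.

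The KRT18 level ran from 1540 to 4233 FPKM in male SCNT-BLs (median 3848), from 1529 to 3049 FPKM in male sham NT-BLs (median 2351) and from 2651 to 3896 FPKM in male IVF-BLs (median 2713). In females it ran from 523 to 3992 FPKM in SCNT-BLs (median 2083), was 2439, 1691, 1999, 2404 and 3271 FPKM in sham NT-BLs, and ran from 864 to 3635 FPKM in IVF-BLs (median 2760.5). Male SCNT-BLs had the highest group median, and 5 of their 6 embryos lay between 2821 and 4233 FPKM, yet all 15 pairs of groups overlapped. The lowest KRT18 level of the 35 blastocysts, 523 FPKM, belonged to female SCNT-BL replicate 6. That embryo also had the lowest KRT8 level of its group, 934 FPKM, in a library of relative depth 0.511.

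KRT18 exceeded KRT8 in 29 of 35 blastocysts. FPKM correct for transcript length, but not for other differences in how the 2 genes were amplified or mapped. The ratio of KRT18 to KRT8 had a median of 1.33 over the 35 embryos (range 0.560 to 1.95). By group, the median ratio was 1.49 in male SCNT-BLs, 1.01 in male sham NT-BLs and 1.31 in male IVF-BLs, and 1.14 in female SCNT-BLs, 1.89 in female sham NT-BLs and 1.05 in female IVF-BLs. By median, the ratio was therefore highest in the sham NT-BLs of 1 sex and lowest in the sham NT-BLs of the other. By mean, it was lowest in female IVF-BLs, at 1.08, against 1.12 in male sham NT-BLs. KRT18 was above KRT8 in 6 of 6 male SCNT-BLs, 4 of 6 male sham NT-BLs and 6 of 6 male IVF-BLs, and in 5 of 6 female SCNT-BLs, 5 of 5 female sham NT-BLs and 3 of 6 female IVF-BLs. These ratios are a description and were not tested.

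**Figure D2:**
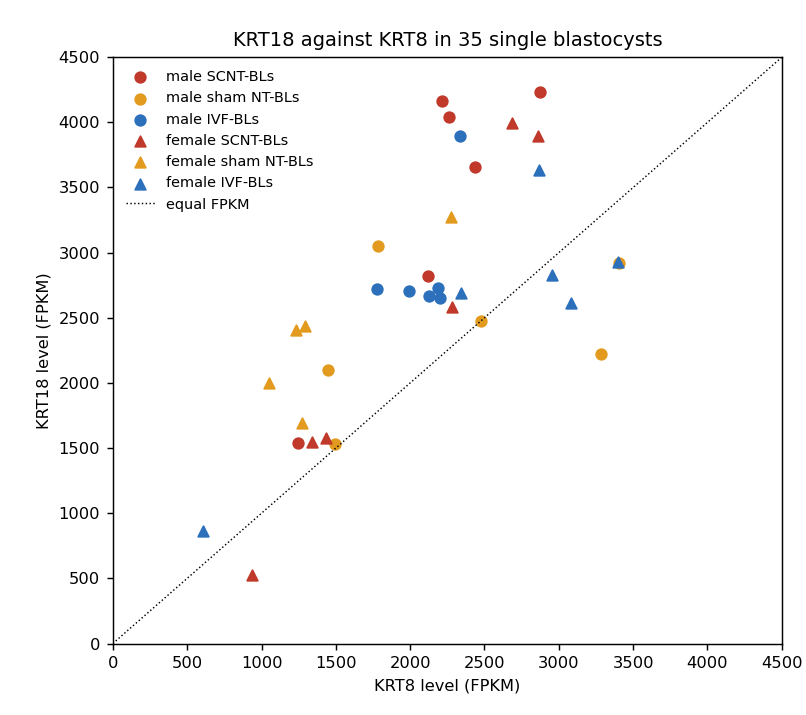
KRT18 level against KRT8 level, both in FPKM on linear axes, in 35 single blastocysts, with circles for males, triangles for females and a dotted line of equal FPKM. The levels run together across embryos, 29 points lie above the line, and female IVF-BL replicate 6 (607 and 864 FPKM) and female SCNT-BL replicate 6 (934 and 523 FPKM) sit at the lower left.

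KRT8 and KRT18 varied together from embryo to embryo. After subtracting each group's mean of log2(FPKM + 1), the pair correlated across the 35 blastocysts at r = 0.83 (Spearman's rho = 0.80), and at r = 0.77 without female IVF-BL replicate 6 and female SCNT-BL replicate 6, the 2 embryos farthest from the median. KRT19 followed both less closely, with r = 0.68 to KRT8 and r = 0.64 to KRT18, and 0.51 and 0.55 without the 2 farthest embryos. KRT7 correlated at 0.33 with KRT8, 0.40 with KRT18 and 0.20 with KRT19, and VIM at 0.0036 with KRT8 and 0.021 with KRT18. These are descriptions over 35 libraries that also share differences in depth and in tissue make-up, and they carry no test.

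KRT19 was a low to moderate transcript, with 1.09, 1.41, 9.48, 17.0, 23.6 and 26.5 FPKM in male SCNT-BLs, 2.95, 4.67, 4.96, 13.4, 25.7 and 48.8 FPKM in male sham NT-BLs, and 6.40, 11.8, 19.2, 33.5, 37.8 and 49.4 FPKM in male IVF-BLs. In females it was at 4.29, 5.71, 12.3, 14.1, 15.0 and 19.2 FPKM in SCNT-BLs, 5.45, 11.5, 15.7, 28.5 and 29.3 FPKM in sham NT-BLs, and 1.45, 38.3, 38.7, 53.3, 53.5 and 60.1 FPKM in IVF-BLs. In 5 of 6 female IVF-BLs KRT19 lay above every female SCNT-BL and every female sham NT-BL, and the remaining one, replicate 6, lay below all of them. The order of the group medians was female IVF (46.0 FPKM), male IVF (26.4 FPKM), female sham (15.7 FPKM), female and male SCNT (13.2 FPKM each) and male sham (9.17 FPKM), and neighbours in that order overlapped. KRT19 is the smallest keratin and lacks most of the tail domain of the other type I chains.

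KRT7 was lower still, below KRT19 in 31 of 35 blastocysts. It was at 0.466, 0.801, 1.50, 3.72, 6.16 and 7.12 FPKM in male SCNT-BLs, 0.774, 1.11, 1.32, 2.54, 2.81 and 7.37 FPKM in male sham NT-BLs, and 0.226, 1.94, 5.74, 6.85, 8.08 and 13.4 FPKM in male IVF-BLs. In females it was listed at 0 in SCNT-BL replicate 5 and was at 1.03, 3.38, 5.57, 6.57 and 12.5 FPKM in the other SCNT-BLs, at 3.35, 3.44, 4.00, 4.69 and 4.91 FPKM in sham NT-BLs, and at 2.60, 9.76, 11.1, 13.6, 18.2 and 22.5 FPKM in IVF-BLs. Female sham NT-BLs were thus the most even group for KRT7, and 5 of 6 female IVF-BLs lay above all of them. The replicate 5 library that lists KRT7 at 0 has the lowest relative depth of all, 0.371.

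VIM was listed at 0 in 19 of 35 blastocysts, lay above 0 and under 1 FPKM in 13, and exceeded 1 FPKM in 3. It was listed at 0 in 4 of 6 male SCNT-BLs and 5 of 6 female SCNT-BLs, and the 3 other SCNT-BLs were at 0.131, 0.196 and 0.123 FPKM. Sham NT-BLs reached 0.591 FPKM in males and 0.0903 FPKM in females. The 3 embryos over 1 FPKM were male IVF-BL replicates 2 (2.54 FPKM) and 3 (1.71 FPKM) and female IVF-BL replicate 5 (1.60 FPKM). A value of exactly 0 in this table can be a failed estimate, since PPIA, a gene of every cell, is also listed at 0 in 21 of 35 blastocysts. Other genes of every cell that were looked at, ACTB, GAPDH, EEF1A1, RPLP0, RPS18, TUBA1B and HSPA8, are listed at 0 in 0 of 35. Fibroblasts and cumulus cells make vimentin: the 10 fibroblast markers summed to 8.12, 11.6 and 8.94 FPKM in the 3 embryos over 1 FPKM, within the 2.44 to 39.1 FPKM of all blastocysts, and the 7 cumulus markers to 21.1, 7.53 and 24.3 FPKM, within 4.07 to 37.8 FPKM. Of the fibroblast genes, COL3A1 and DCN were at most 0.602 and 0.971 FPKM in any blastocyst, but COL1A2 reached 33.5 FPKM, PDGFRB 32.7 FPKM and THY1 15.2 FPKM. The fibroblast sum was highest in male sham NT-BLs, at 17.0 to 39.1 FPKM, against 6.07 to 11.7 FPKM in male IVF-BLs, and its part in the VIM values was not tested.

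SCNT-BLs had the reverse filament profile of their donor cells, high in KRT8 and KRT18 and low in VIM. Male donor cells had 1409 FPKM and female donor cells 1504 FPKM of VIM, ranks 49 and 46 of the table, where the SCNT-BLs above 0 had at most 0.196 FPKM in males and 0.123 FPKM in females. No fold is given for VIM, since 9 of the 12 SCNT-BLs are listed at 0 and such a value can be a failed estimate. KRT8 was 1246 to 2876 FPKM in male SCNT-BLs against 2.02 FPKM in male donor cells, and 934 to 2860 FPKM in female SCNT-BLs against 17.1 FPKM in female donor cells, so that even the lowest SCNT-BL exceeded its donor library 616-fold in males and 54.5-fold in females. KRT18 in the lowest SCNT-BL was 646 times the male donor level of 2.38 FPKM and 164 times the female donor level of 3.18 FPKM. KRT19 was listed at 0 in male and at 0.130 FPKM in female donor cells, and KRT7 was listed at 0 in male donor cells. For KRT7 in females the levels were 0 to 12.5 FPKM in SCNT-BLs and 1.57 FPKM in donor cells, so those overlapped. With 1 donor library per sex these differences have no replicate check and no test. The female donor library also held more of some other keratins than the male one. KRT5 was at 60.3 against 0.461 FPKM, KRT14 at 9.87 against 0.060 FPKM and KRT17 at 7.39 against 0 FPKM. KRT80 went the other way, at 0.853 against 1.71 FPKM. Their part in the female donor levels of KRT8 and KRT18 was not tested. In whole embryos, fewer cells of a type and less RNA per cell cannot be told apart.

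Of the 5 genes, 0 passed the threshold in SCNT-BLs against IVF-BLs of either sex (limma on log2(FPKM + 1), Benjamini-Hochberg adjusted p under 0.05 over all genes tested), where 6.98% of all genes passed in males and 0.321% in females. At an unadjusted p under 0.05 the count was 0 of 5 in males and 1 of 5 in females. KRT8 averaged 2192 ± 535 FPKM in male SCNT-BLs and 2103 ± 194 FPKM in male IVF-BLs (SD, n = 6 each), a log2 fold change of 0.02 with a 95% interval from -0.40 to 0.44. KRT18 averaged 3408 ± 1053 FPKM in male SCNT-BLs and 2895 ± 491 FPKM in male IVF-BLs, a log2 fold change of 0.17 (-0.35 to 0.70). In females KRT8 averaged 1923 ± 793 FPKM in SCNT-BLs and 2541 ± 1008 FPKM in IVF-BLs (log2 fold change -0.33, interval -1.26 to 0.59), and KRT18 averaged 2354 ± 1395 FPKM in SCNT-BLs and 2592 ± 922 FPKM in IVF-BLs (-0.30, interval -1.34 to 0.73). The intervals bound the male difference in KRT8 more tightly than any female difference in this pair. Single embryos moved the female values: KRT8 had -0.71 without IVF-BL replicate 6 and -0.15 without SCNT-BL replicate 6, and KRT18 had -0.60 and 0.071 without these, and none passed.

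The minor chains had lower averages in SCNT-BLs than in IVF-BLs without passing the test. KRT19 averaged 13.2 ± 11.0 FPKM in male SCNT-BLs and 26.4 ± 16.6 FPKM in male IVF-BLs (log2 fold change -1.27, SE 0.66, limma adjusted p = 0.289). In females it averaged 11.8 ± 5.72 FPKM in SCNT-BLs and 40.9 ± 21.2 FPKM in IVF-BLs (log2 fold change -1.37, SE 0.65, limma adjusted p = 0.458). KRT7 averaged 3.29 ± 2.84 FPKM in male SCNT-BLs and 6.04 ± 4.69 FPKM in male IVF-BLs (-0.63, interval -1.89 to 0.63). In females, the KRT7 difference was -1.50 on the log2 scale (SE 0.59, interval -2.74 to -0.26), the 1 value with an unadjusted p under 0.05 (0.0207), and its limma adjusted p was 0.352. It was -1.85 without IVF-BL replicate 6 and -1.08 without SCNT-BL replicate 5, the library that lists KRT7 at 0, and passed in neither case. VIM had log2 fold changes of -0.57 in males (interval -1.21 to 0.06) and -0.30 in females (interval -0.77 to 0.17), from levels that are mostly listed at 0. With a pseudocount of 0.1 in place of 1 these became -1.60 and -0.98 without passing, so the size of a VIM difference is set by the pseudocount. The female KRT7 value became -2.19.

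Sham NT-BLs were set against IVF-BLs to ask what the manipulation does when the embryonic genome is kept. Again 0 of 5 genes passed in males and 0 of 5 in females, where 12.1% and 13.5% of all genes passed, and at an unadjusted p under 0.05 the counts were 0 in males and 1 in females. KRT8 averaged 2315 ± 879 FPKM in male sham NT-BLs and 2103 ± 194 FPKM in male IVF-BLs (log2 fold change 0.06, interval -0.51 to 0.62), and in females 1424 ± 485 FPKM in 5 sham NT-BLs and 2541 ± 1008 FPKM in 6 IVF-BLs (-0.71, interval -1.59 to 0.17). KRT18 averaged 2382 ± 561 FPKM in male sham NT-BLs and 2895 ± 491 FPKM in male IVF-BLs (-0.30, interval -0.82 to 0.22), and 2361 ± 595 FPKM in female sham NT-BLs and 2592 ± 922 FPKM in female IVF-BLs (-0.05, interval -0.82 to 0.72). For this main pair every interval included 0. KRT19 had a log2 fold change of -0.94 in males (interval -2.22 to 0.34) and -0.86 in females (interval -2.36 to 0.64). KRT7 came nearest to the threshold: it averaged 4.08 ± 0.708 FPKM in female sham NT-BLs and 13.0 ± 6.94 FPKM in female IVF-BLs, a log2 fold change of -1.26 (SE 0.41, unadjusted p = 0.00801, limma adjusted p = 0.0557). In males KRT7 had -0.78 (interval -1.97 to 0.41), and VIM had -0.35 in males and -0.28 in females. The SCNT and sham comparisons of a sex share their IVF-BLs, so their values are not independent of each other.

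The KRT7 call in females depended on the filter and the scaling: the limma adjusted p was 0.0379 among genes with a mean over 1 FPKM, where 20.8% of all genes passed, and 0.0225 after scaling every library to a common sum, where 16.2% passed, and it ranged from 0.00359 to 0.146 over 18 alternatives. Scaling to a common sum moved the median log2 fold change of all genes in this comparison from -0.09 to -0.29, a shift of -0.19, and the calls over all genes from 1073 higher and 988 lower to 762 higher and 1709 lower. The KRT7 estimate with that scaling was -1.56. Relative depth was 0.426 to 0.818 in female sham NT-BLs and 0.865 to 1.44 in female IVF-BLs, without overlap. Summed FPKM did not overlap either, at 507831 to 554711 and 414105 to 489827. Depth and origin therefore cannot be told apart between these groups, and the part of depth in the KRT7 difference was not tested. Beside these values, the 12 trophectoderm markers summed to 190 to 519 FPKM in male sham NT-BLs and 401 to 543 FPKM in male IVF-BLs, and to 285 to 362 FPKM in female sham NT-BLs and 434 to 835 FPKM in female IVF-BLs. Of the 11 tested, 2 fell in males and 3 in females, KLF5 in both, and 0 rose, where 12.1% and 13.5% of all genes passed. The inner cell mass markers POU5F1 and KLF4 also fell in both sexes, out of 7 tested. Their part in the keratin values was not tested.

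Further calls in both female comparisons appeared when female IVF-BL replicate 6 was left out. It had the lowest KRT8 (607 FPKM), KRT18 (864 FPKM), KRT19 (1.45 FPKM) and KRT7 (2.60 FPKM) levels of its group, where the other 5 embryos had 2341 to 3396, 2611 to 3635, 38.3 to 60.1 and 9.76 to 22.5 FPKM. The library was not shallow, with a relative depth of 1.44. Its 8 inner cell mass markers summed to 369 FPKM, the highest of the 35 blastocysts, against 112 to 281 FPKM in the other 5, its 12 trophectoderm markers to 440 FPKM, against 434 to 835 FPKM, and ACTB was at 1944 FPKM, against 3728 to 8311 FPKM. PRDM14, a pluripotency factor, reached 144 FPKM, the highest of the 35. POU5F1, of the same marker list, did not stand out, at 69.4 FPKM within the group's 35.6 to 136 FPKM. Their part in the low keratin values was not tested.

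Without that embryo, 1 of 5 genes passed in female SCNT-BLs against IVF-BLs, where 0.375% of all genes passed, and 3 of 5 passed in female sham NT-BLs against IVF-BLs, where 12.6% of all genes passed. KRT19 was then lower in SCNT-BLs by a log2 fold change of -2.09 (limma adjusted p = 0.0147), with 4.29 to 19.2 FPKM in 6 SCNT-BLs and 38.3 to 60.1 FPKM in 5 IVF-BLs. In sham NT-BLs, KRT8 had -1.08 (limma adjusted p = 0.0214), KRT19 -1.58 (0.0134) and KRT7 -1.61 (0.00359). With replicate 6 included, the ranges of sham NT-BLs and IVF-BLs overlapped in each of the 3 genes. KRT18 did not pass in either comparison, with -0.60 in SCNT-BLs and -0.34 in sham NT-BLs. Leaving out an embryo whose levels of the 4 keratins are the lowest of its group raises the IVF averages by construction. These values therefore show how much rests on 1 embryo and are no independent evidence of a difference. With female SCNT-BL replicates 5 and 6 also left out, an alternative chosen after seeing the data, KRT19 had -1.62 (limma adjusted p = 0.00786) and was again the 1 of 5 genes to pass, where 0.44% of all genes passed. Over the 20 alternatives to the fit of all embryos, these fits included, the KRT19 adjusted p ranged from 0.00786 to 0.641.

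**Figure D3:**
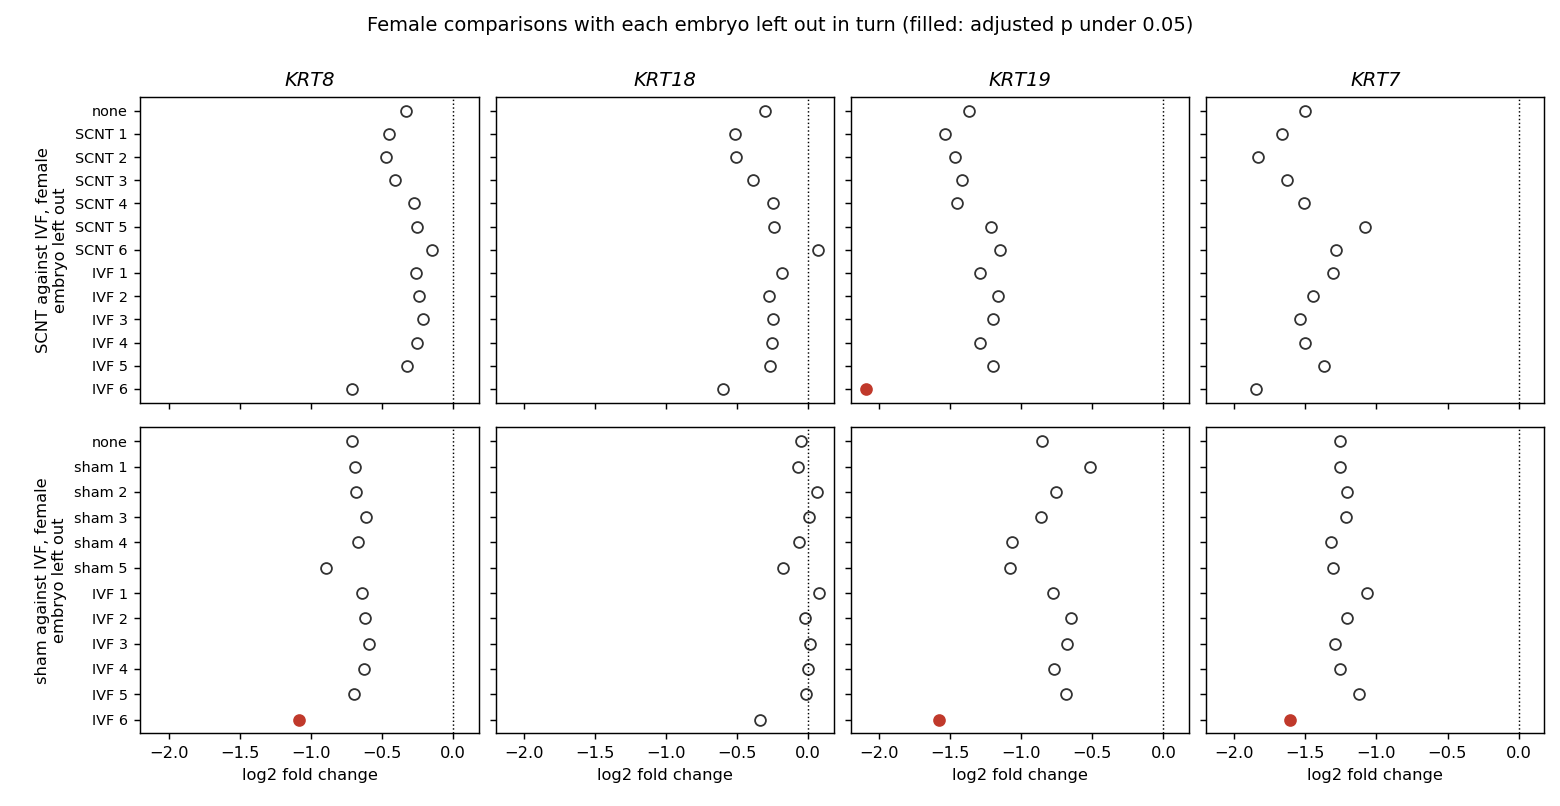
Log2 fold change of the 4 keratins in female SCNT-BLs against IVF-BLs (upper row) and female sham NT-BLs against IVF-BLs (lower row), with no embryo or each embryo in turn left out. Filled points have a limma adjusted p under 0.05, and they appear only where IVF replicate 6 is left out: KRT19 at -2.09 in the upper row, and KRT8 at -1.08, KRT19 at -1.58 and KRT7 at -1.61 in the lower row.

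SCNT-BLs against sham NT-BLs compares a donor nucleus with an embryonic genome, both after manipulation and activation. The handling was not the same, since SCNT-BLs came from enucleated oocytes fused with a donor cell and sham NT-BLs from fertilized zygotes. None of the 5 genes passed in males and none of the 4 tested in females (VIM stayed under the filter there), where 11.8% and 11.3% of all genes passed, and 0 had an unadjusted p under 0.05 in either sex (limma). KRT18 had the largest male estimate, 3408 ± 1053 FPKM in SCNT-BLs and 2382 ± 561 FPKM in sham NT-BLs, a log2 fold change of 0.47 (interval -0.18 to 1.12). KRT8 had -0.03 in males (interval -0.68 to 0.61) and 0.37 in females (interval -0.38 to 1.13). KRT19 had -0.33 in males and -0.52 in females, with intervals from -1.89 to 1.23 and from -1.47 to 0.43. KRT7 had 0.15 in males (interval -0.91 to 1.21) and -0.24 in females (interval -1.43 to 0.95). Without female SCNT-BL replicates 5 and 6, KRT18 and KRT7 in females changed sign to 0.29 and 0.55, and neither passed.

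The interaction asked whether the SCNT effect differed between the sexes. Each sex has its own donor population, so sex and donor cannot be told apart in this comparison. Female minus male, 0 of 5 genes passed and 0 had an unadjusted p under 0.05 (limma), where 1.91% of all genes passed. The differences of log2 fold changes were -0.35 for KRT8 (interval -1.35 to 0.64), -0.48 for KRT18 (-1.63 to 0.68), -0.10 for KRT19 (-2.16 to 1.97), -0.87 for KRT7 (-2.68 to 0.94) and 0.28 for VIM (-0.51 to 1.06). The intervals for KRT19 and KRT7 are wide, and these values do not show that the sexes respond alike.

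**Figure D4:**
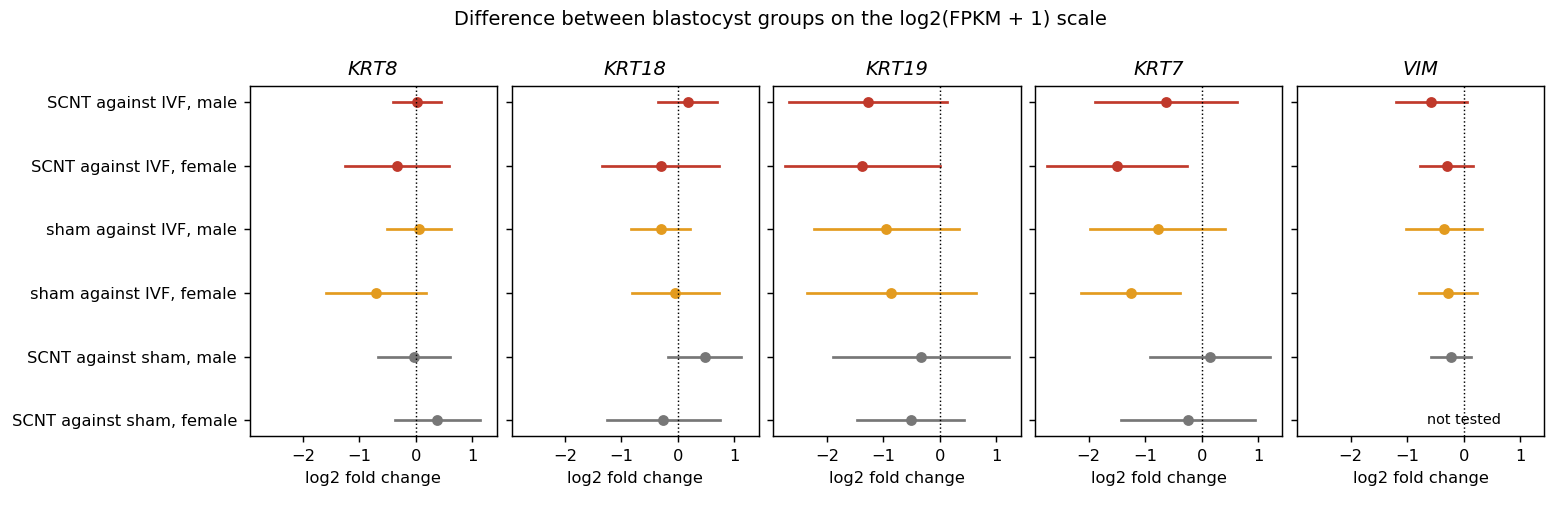
Log2 fold change on the log2(FPKM + 1) scale (points) with its 95% interval from limma (lines) for the 5 genes in 6 within-sex comparisons, all embryos included. All KRT8 and KRT18 intervals include 0, the female KRT7 intervals against IVF-BLs (-2.74 to -0.26 and -2.14 to -0.38) do not, and no gene has an adjusted p under 0.05.

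Among the other keratins, 51 rows in all, only 3 averaged over 1 FPKM in blastocysts, and 41 averaged at most 0.1 FPKM. KRT5, the type II chain of basal epidermal cells, averaged 254 FPKM over the 35 blastocysts (range 16.3 to 689 FPKM), a level between those of KRT18 and KRT19, with 0.461 FPKM in the male donor library and 60.3 FPKM in the female one. It was the only other keratin to pass in a within-sex comparison of the full groups: it fell to 102 ± 37.5 FPKM in female SCNT-BLs, against 289 ± 78.5 FPKM in female sham NT-BLs (log2 fold change -1.55, limma adjusted p = 0.00327). KRT80 and KRT1 averaged 11.0 and 3.12 FPKM. No other keratin passed in SCNT-BLs against IVF-BLs (7 tested in males and 13 in females) or in sham NT-BLs against IVF-BLs (9 and 13 tested).

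Desmosomes anchor keratin filaments at cell contacts. The counts of this and the next lists stand beside the shares of all genes that passed. These were 6.98% in male and 0.321% in female SCNT-BLs against IVF-BLs, and 12.1% and 13.5% in sham NT-BLs against IVF-BLs. Of 15 desmosome and plakin genes tested in male SCNT-BLs against IVF-BLs, 0 rose and 2 fell (median log2 fold change -0.12, against -0.01 over all genes). JUP, plakoglobin, fell to 97.8 ± 24.4 FPKM in male SCNT-BLs, against 221 ± 16.6 FPKM in male IVF-BLs (log2 fold change -1.20, limma adjusted p = 0.000777), and PERP fell by 0.99 on the log2 scale. In females 0 of 15 passed. In sham NT-BLs PERP, a tetraspan desmosome protein, fell in both sexes, to 10.5 ± 6.40 FPKM in male sham NT-BLs, against 43.8 ± 14.1 FPKM in male IVF-BLs and to 6.39 ± 3.94 FPKM in female sham NT-BLs, against 22.4 ± 7.37 FPKM in female IVF-BLs. PKP2, a desmosomal plaque protein, fell in females to 21.9 ± 3.57 FPKM in sham NT-BLs, against 46.3 ± 11.5 FPKM in IVF-BLs. DSG1, a desmosomal cadherin, rose to 0.805 ± 0.416 FPKM in female sham NT-BLs, against 0.117 ± 0.0713 FPKM in female IVF-BLs, a call lost with scaling to a common sum, so that 1 of 16 rose and 2 fell there. DSP, the plakin that binds keratin to the plaque, passed in neither female nor male SCNT-BLs against IVF-BLs.

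Among the other intermediate filaments and lamins, the nuclear lamina gene LMNB1 rose in male SCNT-BLs against IVF-BLs, with 36.9 ± 5.23 FPKM in SCNT-BLs and 17.1 ± 5.60 FPKM in IVF-BLs, and LMNB2 fell, with 10.2 ± 2.50 FPKM in SCNT-BLs and 19.2 ± 3.38 FPKM in IVF-BLs, out of 12 tested. LMNB1 also rose in sham NT-BLs of both sexes, by log2 fold changes of 1.72 in males and 1.15 in females, while LMNA, PRPH and NEFH fell in female sham NT-BLs. In female SCNT-BLs against IVF-BLs 0 of 13 passed. The NEFH call was lost with median centring.

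Of 16 epithelial identity genes tested in male SCNT-BLs against IVF-BLs, 0 rose and 3 fell (median log2 fold change -0.64, against -0.01 over all genes): SPINT2, an inhibitor of membrane serine proteases, ST14, the protease matriptase that it inhibits, and CLDN7, a tight junction claudin. SPINT2 was 27.6 ± 5.43 FPKM in male SCNT-BLs and 85.0 ± 17.9 FPKM in male IVF-BLs. SPINT2 also fell in sham NT-BLs, with log2 fold changes of -2.74 in males, where it was the 1 gene of 16 to pass, and -1.19 in females, where it and the splicing regulator ESRP1 were the 2 of 17 to pass. The ESRP1 call was lost with median centring. In female SCNT-BLs against IVF-BLs 0 of 17 passed. Of the mesenchymal genes, 0 of 14 passed in male and 0 of 15 in female SCNT-BLs against IVF-BLs, and LGALS1, galectin-1, fell in male sham NT-BLs to 222 ± 88.2 FPKM, against 974 ± 228 FPKM in male IVF-BLs. FN1, fibronectin, which like VIM is a fibroblast product, was abundant in blastocysts, with 2975 ± 1203 FPKM in male SCNT-BLs and 3796 ± 932 FPKM in male IVF-BLs, so the low level of VIM was not shared by all genes of that list.

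Among partners of keratin and vimentin, 1 of 13 tested rose and 3 fell in male SCNT-BLs against IVF-BLs. HSPB1, a small heat shock protein that binds intermediate filaments, was 84.0 ± 28.6 FPKM in male SCNT-BLs and 265 ± 116 FPKM in male IVF-BLs, FAM83H, a keratin-organizing protein, was 10.2 ± 3.55 FPKM in male SCNT-BLs and 25.8 ± 4.04 FPKM in male IVF-BLs, and S100A10, an annexin partner, rose to 366 ± 151 FPKM in male SCNT-BLs, against 159 ± 54.6 FPKM in male IVF-BLs. PPP2CA, a phosphatase subunit, was the third to fall. FAM83H and HSPB1 fell in male sham NT-BLs as well, along with ANXA2, ACTB and PPP2CA, 5 of 13 tested, of which the PPP2CA call was lost with median centring. ACTB was 3155 ± 656 FPKM in male sham NT-BLs and 6105 ± 1079 FPKM in male IVF-BLs. None of the 14 tested passed in female SCNT-BLs against IVF-BLs, and 1 of 14, S100A10, fell in female sham NT-BLs.

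Between SCNT-BLs and sham NT-BLs, where 11.8% of all genes passed in males and 11.3% in females, some genes of the same lists passed. Most counts per list were near or below those shares. In males, JUP fell to 97.8 ± 24.4 FPKM in SCNT-BLs, against 232 ± 95.6 FPKM in sham NT-BLs, and PERP rose, out of 15 desmosome genes. Of 16 epithelial genes, SPINT2 rose and 3 fell: CDH1, the adhesion cadherin of epithelia, to 652 ± 81.8 FPKM in SCNT-BLs, against 1570.2 ± 803 FPKM in sham NT-BLs, and the claudins CLDN7 and CLDN4. LMNB2 fell and INA, a neuronal filament chain, rose, out of 12 filament and lamin genes. LGALS1 and SPARC rose out of 14 mesenchymal genes, and S100A10 out of 14 partners. In females, PKP2 rose out of 15 desmosome genes, SPINT1, SPINT2 and ESRP2 out of 17 epithelial genes, and LMNB1 fell out of 12 filament and lamin genes, with 0 of 15 mesenchymal genes and 0 of 15 partners passing. Some marker genes of the cell lineages passed in this comparison too. Of 11 trophectoderm markers 3 rose and 0 fell in each sex, KLF5 in both, with CDX2 and TFAP2C in males and TEAD4 and IFNT2 in females. POU5F1 and GATA6, markers of the inner cell mass and the primitive endoderm, rose in both sexes, KLF4 rose and RSPO3 fell in females. Of the fibroblast markers, COL1A1 and COL1A2 fell in males, to 3.25 ± 1.90 FPKM of COL1A2 in SCNT-BLs, against 13.6 ± 11.2 FPKM in sham NT-BLs, while PDGFRB fell and THY1 rose in females. Their part in the other values was not tested. The male PERP and SPARC calls and the female ESRP2 call were lost with median centring, and the female LMNB1 call with scaling to a common sum.

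The genes most like each member across embryos were ranked by the correlation of group-centred log2(FPKM + 1) over the 35 blastocysts, among 11154 other genes with a mean over 1 FPKM (11155 for VIM). For KRT8 they were CRIP1 (r = 0.86), KRT18 (0.83), PLS1 (0.82) and APOA1 (0.78), and for KRT18 the first 2 were CRIP1 (0.84) and KRT8 (0.83). CRIP1 thus stood ahead of the partner chain in both lists, and PLS1 encodes an actin-bundling plastin of epithelial cells. For KRT19 the closest were BCAM (0.86), ARSB (0.82), PTGS2 (0.80) and MUC1 (0.80), with KRT8 only at place 66 and KRT18 at place 109. For KRT7, with VWF (0.67) first, and VIM, with MAPT (0.63) first, no gene had a higher r. These orders describe 35 libraries and carry no test.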

How the data were processed

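RNA of 35 single blastocysts and 2 donor cell libraries was measured by RNA-seq after pico-profiling (random-primed amplification of poly-A RNA). The authors trimmed reads, mapped them to the UMD 3.1 build (TopHat) and derived FPKM (Cufflinks). The submitters' processing notes name Trim Galore, TopHat, Cufflinks and Cuffdiff without versions. The deposited FPKM already divide by transcript length and mapped fragments, so counts and counting errors were not used and depth is known only relatively. All 37 columns were used, and 0 were left out. Groups came from the sample labels.

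Genes averaging above 0.1 FPKM over both groups of a comparison entered limma 3.58.1 (R 4.3.3; lmFit, eBayes with trend) on log2(FPKM + 1), a scale that understates changes of low genes, two-sided, with Benjamini-Hochberg adjustment over all genes and a threshold of 0.05. The fit was checked on simulated data for male SCNT-BLs against IVF-BLs only, with independent, normally distributed log2 values. The other comparisons were not checked in this way. Alternatives were a pseudocount of 0.1, a mean over 1 FPKM, no filter, a common sum, median centring, the replicate number as a block, all 3 groups of a sex in 1 fit, and each embryo left out. The members, gene lists and naming rule (every member, and at most 4 called genes of a list, or with none called its 2 most abundant) were chosen with earlier results of these data known. Of the marker lists, blood (0 of 4 genes), cumulus (3 of 7), fibroblast (3 of 10), primitive endoderm (7 of 8), inner cell mass (7 of 8) and trophectoderm (10 of 12) averaged over 1 FPKM in blastocysts.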

Additional observations from a re-analysis of the deposited data

Results flagged for a closer look

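A single embryo was far from the rest of its group, by a gap-to-range test at the 95% level, in 7 of 36 sets of values. For normally distributed values the test flags about 1 in 20 groups by chance. It was run on untransformed values, and many VIM values are listed at 0, so that rate need not hold here. In female IVF-BLs, replicate 6 had 864 FPKM of KRT18, with the other 5 embryos at 2611 to 3635 FPKM, and 1.45 FPKM of KRT19, with the others at 38.3 to 60.1 FPKM. Male IVF-BL replicate 5 had 3896 FPKM of KRT18, above the 2651 to 2728 FPKM of the others. Female sham NT-BL replicate 5 had 2275 FPKM of KRT8, with the others at 1051 to 1292 FPKM. Male sham NT-BL replicate 4 had 7.37 FPKM of KRT7, with the others at 0.774 to 2.81 FPKM. VIM was at 1.60 FPKM in female IVF-BL replicate 5, with the others at most 0.436 FPKM. It was at 0.123 FPKM in female SCNT-BL replicate 4, with the others listed at 0, where any value above 0 would have been flagged. For the interaction of sex and origin, 0 of the 5 genes passed the test.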

How the results depend on the processing

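The count of called genes among the 5 was 0 in all 7 comparisons and stayed 0 in 139 of 145 alternatives. In female SCNT-BLs against IVF-BLs it ranged from 0 to 1 with each embryo left out, and was 1 without 3 libraries that stand apart (0.44% of all genes). In female sham NT-BLs against IVF-BLs it ranged from 0 to 3 with each embryo left out (3 without female IVF replicate 6), and was 1 with a mean over 1 FPKM (20.8% of all genes passed) and 1 with scaling to a common sum (16.2%). With the replicate number as a block it was 2 (10.5% of all genes), in a fit that drops female IVF replicate 6, since female sham NT-BLs have 5 numbers. Same-numbered embryos did not deviate together (r from -0.239 to 0.0767, 0 pairs over 0.1 in all 6 comparisons), so the numbers were taken as names and not as a pairing. The block moved the calls over all genes by over 1.5 times in male SCNT-BLs against IVF-BLs (652, against 1040), in females (20, against 49) and in the interaction (94, against 295). Calls over all genes in female SCNT-BLs against IVF-BLs were also 75 with a mean over 1 FPKM, 1 without a filter and 1 to 57 with an embryo left out, and in the interaction 147 to 311 with an embryo left out and 161 without the 3 libraries that stand apart, where 0 of the 5 genes passed.

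Of 698 alternative values of single genes, 41 changed sign, none of them called, and no main value among them exceeded 0.33 in size. With scaling to a common sum KRT8 had -0.0054 in male SCNT-BLs and -0.059 in male sham NT-BLs against IVF-BLs, and 0.054 in male SCNT-BLs against sham NT-BLs. With median centring KRT18 had 0.078 in female sham NT-BLs against IVF-BLs. With the block, KRT18 had 0.12 in female SCNT-BLs against sham NT-BLs, and without 2 libraries that stand apart KRT18 had 0.29 and KRT7 0.55 there. With a pseudocount of 0.1, KRT19 had 0.12 in the interaction. With each embryo left out, log2 fold changes ran from -0.065 to 0.18 (KRT8, male SCNT against IVF), -0.60 to 0.071 (KRT18, female SCNT against IVF), -0.073 to 0.17 (KRT8, male sham against IVF), -0.34 to 0.074 (KRT18, female sham against IVF), -0.15 to 0.12 (KRT8), -0.64 to 0.10 (KRT19) and -0.10 to 0.43 (KRT7) in male SCNT against sham, -0.47 to 0.12 (KRT18) and -0.58 to 0.18 (KRT7) in female SCNT against sham, and -0.82 to 0.22 (KRT19, interaction). The causes were not tested. VIM is listed at 0 in 19 of 35 blastocysts, and the part of depth in this was not tested.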
